A study of Macaca fascicularis with 3 samples.

Results

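miR-126, a miRNA best known from the endothelial cells that line blood vessels, was counted by small RNA sequencing in kidney cortex from 3 naïve cynomolgus monkeys, Macaca fascicularis. It was found by its name in the deposited count table, where 1 of the 432 listed mature miRNAs, mfa-miR-126, carries this stem, with no arm suffix. The authors' table of normalized values pairs this row with human miR-126-3p, so the values below belong to the 3p strand of the hairpin, and the 5p strand was not analysed here. The labels put the animals' age at 2 to 3 years, give no genotype, treatment or sex by which they differ, and provide 1 library of small RNA per animal. All 3 libraries form a single group, so the comparisons are between miRNAs within an animal and between the 3 animals. The row was chosen by name, with the earlier profile of these data known.

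The miR-126 hairpin lies in an intron of EGFL7, a gene for a secreted protein of endothelial cells, and is made together with its host transcript. Its 3p strand is known to repress SPRED1 and PIK3R2, inhibitors of the signalling that follows vascular endothelial growth factor, and VCAM1, an adhesion molecule that binds leucocytes. In the kidney cortex, endothelium lines the glomerular and peritubular capillaries. Haematopoietic progenitors and platelets also contain miR-126. The RefSeq table of the cynomolgus assembly T2T-MFA8v1.1 lists EGFL7 as a protein-coding gene next to AGPAT2. It lists no other gene within EGFL7, so the place of the hairpin was not read from it. The deposited tables hold no coordinates and no host gene transcript, so the level of EGFL7 was not analysed here.

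miR-126 was among the miRNAs with the most counts in every animal. Levels, ranks and ratios between miRNAs are those of counts here. How many reads each miRNA yields per molecule in the tissue was not measured. It had 214620 counts in animal 1, 187952 in animal 2 and 161368 in animal 3, out of library totals of 4305977, 4707892 and 3957188 counts assigned to listed miRNAs. Per 1000000 listed counts (CPM) these are 49842, 39923 and 40778, so animal 1 was highest and animals 2 and 3 were close together. As a share of listed counts miR-126 took 4.98%, 3.99% and 4.08%. The Wilson 95% confidence intervals reached from 4.96 to 5.005%, from 3.97 to 4.01% and from 4.06 to 4.10%, and did not overlap. They cover counting error only, not the spread between animals. The reads carry no molecular identifiers and are not independent molecules, so the intervals may be too narrow even for that error. The mean share was 4.35% ± 0.55 (SD, n = 3), or 1 count in 20.1, 25.0 and 24.5 in animals 1, 2 and 3. The median listed miRNA stood at 45.4, 47.6 and 33.4 CPM, and miR-126 was 1098, 839 and 1222 times that level.

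**Figure D1:**
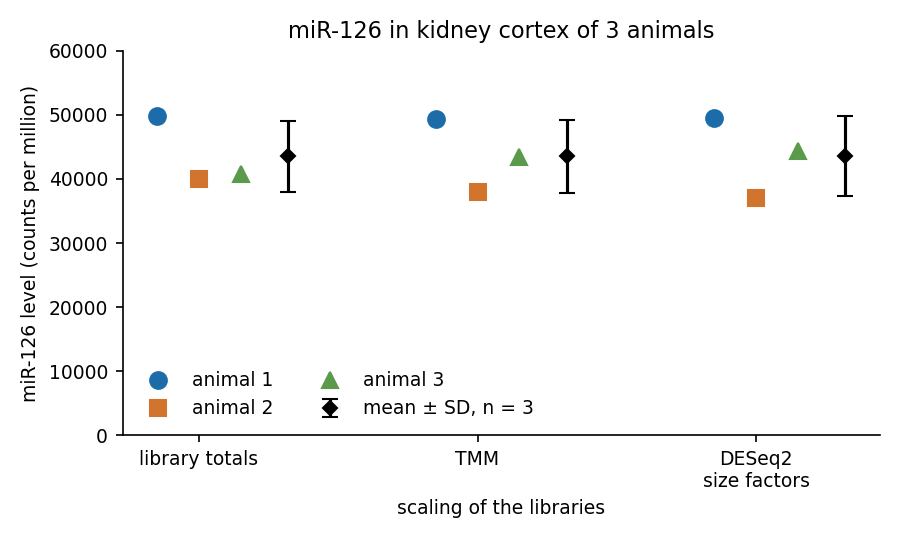
Level of miR-126 in CPM (y axis, from 0) in each animal under 3 ways of scaling the libraries (x axis); coloured symbols are single animals and the black diamond with bars is the mean ± SD of 3 animals. Animal 1 sits highest and animal 2 lowest in all 3, from 36996 to 49842 CPM.

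The animals differed in miR-126 by less than 1.5-fold. With the trimmed mean of M values (TMM), a scaling that sets aside the most extreme miRNAs, the levels were 49305, 37953 and 43362 CPM in animals 1, 2 and 3, a span of 1.299-fold from the lowest to the highest. Library totals gave a span of 1.25-fold and DESeq2 size factors 1.34-fold. The authors' normalized signal carries no scaling for depth, and its values were 212311, 178678 and 171589, so that there animal 3 was lowest instead of animal 2. All 3 scalings that include depth put animal 2 lowest. Only the signal without that step put animal 3 lowest, the animal with the smallest library total. Animal 1 was highest in all 4 measures.

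A comparison that no single factor per library can move is the difference from the median change of the 81 miRNAs with a mean of at least 1000 CPM. Among the 81, miR-199a and miR-199a-5p had identical counts. Over all 432 names, 4 repeated the counts of another, and without those 4 the mean CPM of miR-126 was 43648. The TMM-scaled median log2 ratio of these 81 was 0.02 for animal 1 over animal 2, -0.14 for animal 1 over animal 3, and -0.17 for animal 2 over animal 3. For animal 1 over animal 2 the log2 ratio of miR-126 lay 0.35 above that median, and 20 of the 81 lay farther from it. For animal 1 over animal 3 it lay 0.33 above, and 45 of the 81 lay farther. Between animals 2 and 3 it lay at -0.02, and 77 of the 81 lay farther. In animals 2 and 3 miR-126 thus held nearly the same place relative to the abundant miRNAs, and it was higher in animal 1.

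The difference between the 3 libraries was larger than counting error. Tested for homogeneity with a chi-square test on TMM-scaled library sizes, miR-126 gave a statistic of 6896, with a Benjamini-Hochberg adjusted log10 p of -1496. Such a call is the usual one here, since the same test called 80.6% of the 391 miRNAs tested, those averaging 10 or more counts, and 100% of the 81 with a mean of at least 1000 CPM. Between animals 1 and 2 alone it called 59.2% of 400. The test compares separate animals with the error of counting reads, not conditions. Among the 81 abundant miRNAs, the SD of log2 TMM-scaled CPM ran from 0.06 to 2.08 with a median of 0.25. That of miR-126 was 0.19, the 25th lowest of 81. A span above 2-fold was reached by 23.5% of the 81, and miR-126 was not among them. The biological coefficient of variation fitted by edgeR for each miRNA was 0.293 for miR-126, where the median of the 81 was 0.321. This fit is drawn toward a trend over all tested miRNAs, which stood at 0.347 for miR-126, and so is not its observed spread. miR-30b-5p, with a log2 SD of 0.06, was also fitted at 0.293. The observed SD of the TMM-scaled CPM of miR-126 was 13.0% of its mean.

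The library of animal 3 stands apart from the others: of the 81 abundant miRNAs, 7 were there more than 2-fold below both other animals, a number that was 0 for animal 1 and 1 for animal 2. miR-126 was not among them. Without animal 3 its mean level was 44883 CPM, against 43515 CPM ± 5497 (SD, n = 3) with it.

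In the order of levels, miR-126 took the sixth place by mean CPM. Its place was 4 in animal 1, 7 in animal 2 and 6 in animal 3. Of the 431 other names, 2 exceeded it in all 3 animals, miR-10b-5p and miR-30a-5p. It exceeded 425 names in all 3 animals. The other 4 names, miR-30c-5p, miR-204-5p, miR-26a-5p and miR-29b-3p, were above it in some animals and below it in others.

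**Figure D2:**
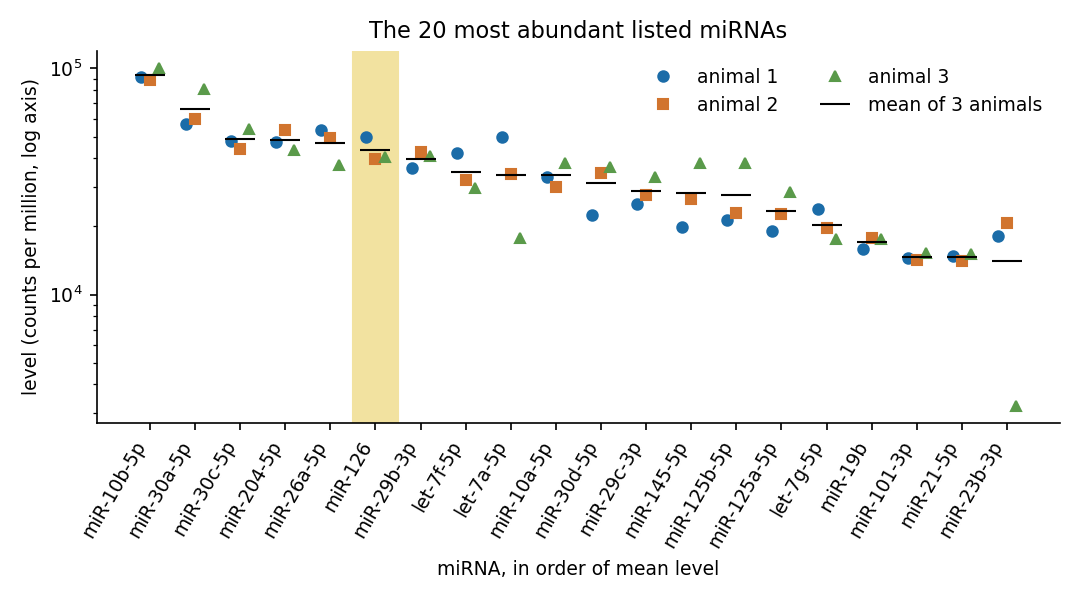
Levels of the 20 most abundant miRNAs in CPM (y axis, log scale) in order of mean level (x axis); symbols are single animals, dashes are means of 3, and the band marks miR-126. The range of miR-126, from 39923 to 49842 CPM, overlaps the ranges of the 3 names before it and of miR-29b-3p, let-7f-5p and let-7a-5p after it.

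These 4 names held no fixed order against miR-126. miR-30c-5p, of a family abundant in kidney epithelium, had 47764, 44083 and 54200 CPM in animals 1, 2 and 3, and only in animal 1 was miR-126 higher. miR-204-5p, which is enriched in kidney tubules, had 47353, 53577 and 43443 CPM, again with miR-126 higher only in animal 1. miR-26a-5p, a broadly expressed miRNA, had 53477, 49156 and 37549 CPM, and miR-126 was higher only in animal 3. miR-29b-3p, known for repressing collagen transcripts, had 36390, 42590 and 40808 CPM, and miR-126 was higher only in animal 1. In animal 3 the counts of miR-126 and miR-29b-3p were 161368 and 161485.

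The mean log2 ratio of miR-126 over these neighbours was -0.16 ± 0.24 for miR-30c-5p, -0.15 ± 0.25 for miR-204-5p, -0.09 ± 0.21 for miR-26a-5p and 0.12 ± 0.29 for miR-29b-3p (SD over 3 animals). The next names down belong to the let-7 family, whose members differ by few bases and may share reads. let-7f-5p lay below miR-126 in 3 of 3 animals, by a mean log2 ratio of 0.34 ± 0.11. let-7a-5p also lay below in 3 of 3 animals, by 0.48 ± 0.64, but in animal 1 the counts were 214620 for miR-126 and 214356 for let-7a-5p. Across these 6 neighbours the two-sided p of an exact permutation test that flips the signs of the 3 ratios ranged from 0.25 to 1, and after Benjamini-Hochberg adjustment over 11 within-animal comparisons from 0.458 to 1. With 3 animals the smallest possible p is 0.25, so no difference could pass 0.05.

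miR-126 was next set beside miRNAs of the other cells that a piece of cortex holds. The labels give no sort and the libraries come from whole tissue, so fewer cells of a type and less of its RNA per cell cannot be told apart. The list for smooth muscle and pericytes, the contractile cells around vessels, held miR-143 and miR-145, which are made from 1 shared cluster. Its 4 names summed to 28215, 31785 and 44412 CPM in animals 1, 2 and 3. miR-126 was 1.77 times that sum in animal 1, 1.26 times in animal 2 and 0.918 times in animal 3. The mean log2 ratio was 0.34 ± 0.47 (SD, n = 3), with an exact permutation p of 0.5 and an adjusted p of 0.611. The order of miR-126 and the mural sum thus differed between animals.

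Its main members did not vary alike. miR-145-5p, a driver of the contractile state of smooth muscle, had 19791, 26539 and 37991 CPM in animals 1, 2 and 3, and miR-126 exceeded it 2.52, 1.50 and 1.07 times. miR-143-3p, from the same cluster, had 8069, 4979 and 6114 CPM, and miR-126 exceeded it 6.18, 8.02 and 6.67 times. In CPM, miR-143-3p was highest in animal 1 and lowest in animal 2, as miR-126 was, whereas miR-145-5p was lowest in animal 1 and highest in animal 3. Taken with both of these stems, miR-126 supplied 63.9%, 55.7% and 47.9% of the counts in animals 1, 2 and 3. The mean was 55.8% ± 7.99 (SD, n = 3). The minor arm miR-143-5p was at 9, 5 and 179 counts in the same order of animals, and miR-145-3p was at 1519, 1250 and 1035.

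The tubule list was made of the stems miR-192, miR-194, miR-204 together with miR-215, and all 4 stems had counts in every library. Since a name was listed only with at least 15 reads, having counts is no check of the labelled tissue. Its 5 names summed to 57055, 61982 and 53073 CPM in animals 1, 2 and 3, above miR-126 in each. miR-126 stood at 0.874, 0.644 and 0.768 times the sum, a mean log2 ratio of -0.40 ± 0.22 (SD, n = 3; exact permutation p 0.25, adjusted p 0.458). Most of that sum was miR-204-5p, at 83.8% on average. miR-192-5p and miR-194-5p, which share a cluster and mark kidney epithelium, stood at 4292 CPM ± 425 and 4862 CPM ± 408 (SD, n = 3), and miR-126 exceeded them 10.1 and 8.93 times by geometric mean.

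The epithelial list, of the miR-200 family that keeps cells epithelial, summed to 20903, 20653 and 16281 CPM in animals 1, 2 and 3. It was carried by miR-200a-3p at 10198 CPM ± 1688 and miR-429-3p at 9011 CPM ± 1435 (SD, n = 3). Of its 5 stems, 3 were listed, miR-200a, miR-200c and miR-429. The sum leaves out miR-200b and miR-141, so the ratio to it covers the listed names only. miR-126 was 2.38, 1.93 and 2.50 times this sum, with a mean log2 ratio of 1.18 ± 0.20.

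Blood cells were followed through 2 lists because platelets and blood progenitors also carry miR-126. The erythroid list, led by miR-451 of red cells at 4552 CPM ± 759 (SD, n = 3), summed to 5025, 4374 and 5765 CPM in animals 1, 2 and 3. miR-126 was 9.92, 9.13 and 7.07 times that sum, a mean log2 ratio of 3.11 ± 0.25. The leucocyte list, which includes miR-223 of myeloid cells and platelets, summed to 1621, 1727 and 1518 CPM. miR-126 was 30.8, 23.1 and 26.9 times that sum, a mean log2 ratio of 4.74 ± 0.21.

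Within the leucocyte list miR-223 had 605, 1153 and 633 counts, and miR-142-3p, found throughout the blood lineages, led it with 3933, 4591 and 2736 counts. In CPM the erythroid sum was highest in animal 3, the leucocyte sum in animal 2 and miR-126 in animal 1. The members of both lists did not vary alike. miR-451, which made up 89.8% of the erythroid sum on average, had 4369, 3900 and 5386 CPM in animals 1, 2 and 3. miR-144, next in that list, had 633, 424 and 326 CPM, highest in animal 1. In the leucocyte list miR-142-5p was highest in animal 1, miR-142-3p and miR-223 in animal 2, and miR-150-5p in animal 3. The part of blood cells in the miR-126 level was not tested. The epithelial, erythroid and leucocyte ratios were above 1 in 3 of 3 animals, each with an exact permutation p of 0.25 and an adjusted p of 0.458.

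**Figure D3:**
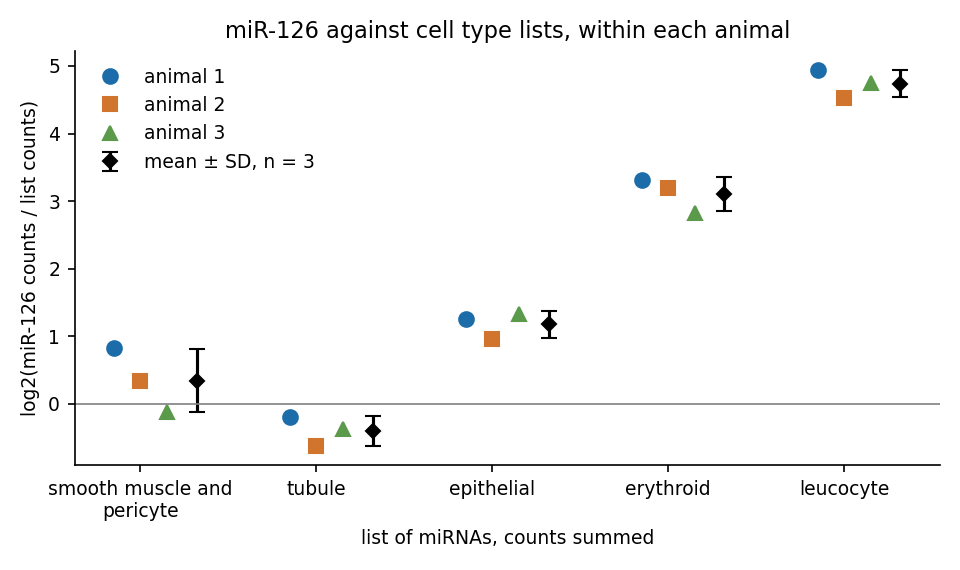
log2 ratio of miR-126 counts over the summed counts of each list (y axis; 0 means equal) for 5 cell type lists (x axis); symbols are single animals and black diamonds with bars are the mean ± SD of 3. The smooth muscle and pericyte list alone has animals on both sides of 0, from 0.82 in animal 1 to -0.12 in animal 3, and all 3 animals lie below 0 for the tubule list.

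The other miRNAs described in vessel biology were counted by role. Among miRNAs described as promoting vessel growth, miR-126 supplied 94.7%, 91.9% and 90.3% of the list's counts in animals 1, 2 and 3. Its 9 other names had a median level of 86.2 CPM, against 43.5 CPM over all 432 names. miR-378a, the highest of them, stood at 1891 CPM ± 181 (SD, n = 3), and the authors pair this row with human miR-378f. miR-210-3p, induced by low oxygen, had 287, 489 and 349 counts in animals 1, 2 and 3. miR-132-3p, described in growing vessels, had 435, 949 and 881. miR-130a-3p had 804, 1360 and 154 counts, so animal 3 was far below the others, while the CPM of miR-126 in animal 3 was close to that in animal 2. Of these 9 names the test of homogeneity called 6, against 80.6% of all tested.

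Among miRNAs described as restraining vessel growth, all 11 names lay below miR-126 in all 3 animals, as did 425 of all 431 other names. The median of the 11 was 742 CPM. The list summed to 1.98%, 1.95% and 2.31% of counts in animals 1, 2 and 3. miR-24-3p led it with 7860 CPM ± 1440 and miR-100-5p followed with 6763 CPM ± 2060 (SD, n = 3). miR-92a-3p, the member of the miR-17 to miR-92 cluster that acts against new vessels, stood at 1590 CPM ± 213. miR-221-3p, which represses the receptor KIT in endothelium, had 9277, 9334 and 1592 counts and so was low in animal 3. miR-222-3p, its cluster partner, had 2606, 2086 and 1471. The test called 10 of the 11 names, against 80.6% of all tested.

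miR-126 belongs with a group that tunes the adhesion molecules and inflammation of endothelium, and it supplied 58.3%, 55.0% and 50.3% of that group's counts in animals 1, 2 and 3. Nearly all of the rest was miR-10a-5p, described as damping inflammatory signalling in endothelium, at 33612 CPM ± 4174 (SD, n = 3). miR-10a-5p differs little in sequence from the abundant miR-10b-5p and its reads could be divided between both names. miR-17-3p, which represses ICAM1, had 721, 867 and 430 counts in animals 1, 2 and 3. miR-31-3p and miR-31-5p, the latter described as repressing E-selectin, had between 9 and 29 counts in each library. miR-146a-5p had 2416, 1618 and 916 counts, miR-155 was at 321, 334 and 137, and miR-181b-5p at 1526, 2619 and 723. In CPM these names, miR-17-3p and miR-10a-3p were lowest in animal 3. miR-17-5p, at 1414, 1689 and 1701 CPM in animals 1, 2 and 3, was highest there, as were miR-10a-5p and both miR-31 arms. The test called 8 of these 9 other names, against 80.6% of all tested.

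The group described as responding to blood flow, in which miR-126, miR-10a, miR-143, miR-145, miR-23b, miR-92a and miR-19a were counted, took 13.3%, 12.6% and 13.0% of counts in animals 1, 2 and 3. miR-126 supplied 37.6%, 31.7% and 31.3% of it, more than any other name on average. miR-23b-3p had 78233, 97506 and 12721 counts and miR-19a-3p had 8482, 10422 and 7786. The test called all 10 other names of this group, against 80.6% of all tested and 100% of those with a mean of at least 1000 CPM. The lists share members, so their sums and calls are not independent. The miR-143 and miR-145 names here are those of the smooth muscle and pericyte list. The miR-10a names are also in the adhesion group, and miR-92a-3p is among those restraining vessel growth.

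Names that varied over the animals most like miR-126 were then sought among the 80 others with a mean of at least 1000 CPM. The measure was the largest difference, over the 3 animals, between the log2 deviations of both names from their own means, which a factor per library does not change. With 3 libraries this is a description. The closest was miR-148a-3p at 0.04, with 21102, 17655 and 15833 counts in the 3 libraries. It was followed by miR-26b-5p at 0.08, miR-27a-3p at 0.08, miR-98, of the let-7 family, at 0.09 and miR-27b-3p at 0.10. The median distance of the 80 was 0.32 and the largest 2.40. miR-126 itself deviated by 0.19, -0.19 and 0.00 in animals 1, 2 and 3 with TMM scaling, and 8 of the 80 likewise had their highest value in animal 1 and their lowest in animal 2. None of the 5 closest names is on the lists used above.

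**Figure D4:**
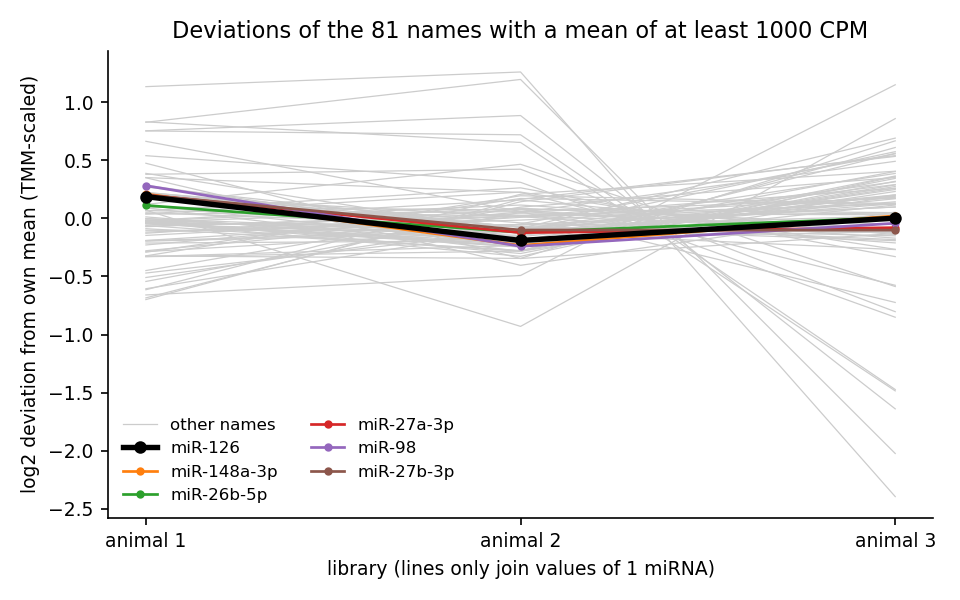
log2 deviation of each miRNA from its own mean (y axis, TMM-scaled) in the 3 libraries (x axis) for the 81 miRNAs with a mean of at least 1000 CPM; miR-126 is black, the 5 closest names are coloured and the rest grey. miR-126 runs from 0.19 in animal 1 to -0.19 in animal 2, while some grey lines fall below -2 in animal 3.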

How the data were processed

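Per the labels' protocols, 25 to 30 mg of tissue was extracted, small RNA was enriched from 5 µg of total RNA, and 12 ng was used for library preparation. The authors mapped reads, per the file headers, to M. fascicularis miRNAs with 0 mismatches and deposited a raw count for each miRNA with at least 15 reads, a minimum that the data show was applied to the sum. The aligner and the handling of reads fitting several miRNAs are not given in the sources used here. A perfect match drops reads with a sequencing error or variant base. Per the file headers, the second deposited table holds a signal normalized by the authors with edgeR. Its values are raw counts over the TMM factors (1.011, 1.052 and 0.940 for animals 1, 2 and 3), with no scaling for library size. The library totals give a floor of 3 counts at 0.697, 0.637 and 0.758 CPM.

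CPM and shares were computed here from raw counts over each library's listed total, and TMM factors with edgeR 4.0.16 in R 4.3.3. Differences between libraries were tested with a chi-square test of homogeneity over the 391 names with a mean count of at least 10, with Benjamini-Hochberg adjustment and a threshold of 0.05. The script was tested on simulated data. Ratios within animals were tested by exact permutation, flipping the signs of the 3 log2 ratios, two-sided. Alternatives were DESeq2 1.42.0 size factors, totals, other count minimums, subsampling, the authors' signal, 1 arm per stem, and each animal left out. Named miRNAs are miR-126, its 3 neighbours on each side by mean CPM, the highest member of each list, the vascular list, and the 5 closest in variation. Other list members named were chosen after their values were seen. The members and lists were chosen with earlier results of these data known. The mature sequence was not used here.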

Additional observations from a re-analysis of the deposited data

How the results depend on the processing

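Of 73 recalculated values of 16 results, 70 kept their direction, their side of the threshold or their place within the spread between animals. Some of these could not have changed, so the tally is no measure of stability. A ratio with the same sign in all 3 animals keeps that sign with any animal left out. The authors' factor per library cancels in a ratio within an animal. Leaving out 1 of 3 animals cannot move a mean past the SD between them. The mean log2 ratio of miR-126 over miR-26a-5p turned from -0.09 to 0.0088 without animal 2, and lay between -0.20 and 0.0088 over the 3 fits that each leave out an animal. That over miR-29b-3p turned from 0.12 to -0.047 without animal 1, and lay between -0.047 and 0.23. With an animal left out, the span between animals lay between 1.08-fold and 1.299-fold, the lowest without animal 2, and with all 3 animals between 1.24-fold in the authors' signal and 1.34-fold with DESeq2 size factors. The chi-square statistic for miR-126 lay between 543 (animal 2 left out) and 6900 (animal 3 left out), and with all 3 animals ran from 6044 with totals to 8571 with DESeq2 size factors, past the threshold in each case. The ratio to the smooth muscle and pericyte list was 0.10 without animal 1 and 0.57 without animal 3 on the log2 scale. Mean CPM ranged from 40351 to 48013 over all settings, the highest when miR-10b-5p was left out of the total. The planned comparison of hairpin arms was not run, because 1 row carries the stem. No paired comparison of conditions was possible because all libraries belong to 1 group. With 3 animals, the exact permutation tests cannot pass 0.05, so their p-values say nothing about stability.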
